A study of Homo sapiens with 2 samples.

Results

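The EphB receptors and the ephrin-B ligands were examined in HEK-293, an established line of human embryonic kidney origin. The cells had been given either a mimic of miR-204 or a scrambled oligonucleotide (control). All probes that carry the gene name of 1 of 5 receptors (EPHB1, EPHB2, EPHB3, EPHB4 and EPHB6) or 3 ligands (EFNB1, EFNB2 and EFNB3) were taken, which gave 10 probes for 8 genes, of 41000 probes and 30484 gene names on the array. No other probe listed a transcript or an older symbol of these genes. The cells received 75 nM of oligonucleotide for 48 h, and the total RNA of both transfections was hybridized together on 2-colour arrays. On the first array the dye of the control RNA was Cy3 and that of the miR-204 RNA Cy5. The second, dye-swap array exchanged them. Since nothing names a further transfection, the 2 arrays count as 1 replicate. No difference could therefore be set against a spread between cultures, and no test of the conditions is given.

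Eph receptors are membrane tyrosine kinases, and their ligands, the ephrins, also sit in the membrane, so that signalling needs contact between cells. B-class ephrins span the membrane and signal back into their own cell (reverse signalling) while the receptor signals forward, both acting on the actin cytoskeleton. The system is known for cell sorting, axon guidance and the separation of arteries from veins, and EPHB2 has been reported as a target of miR-204. A miRNA mostly recognizes its targets through its seed, bases 2 to 8, and often lowers the mRNA it binds.

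The mature sequences of the miR-204 hairpin (chromosome 9 of GRCh38.p14, minus strand, from RefSeq) are shown because they are the agent that distinguishes the cells, with the seed in capitals. miR-211-5p (chromosome 15, minus strand) is shown as the miRNA that shares the seed of miR-204-5p. The labels do not name the arm that the mimic stood for.
hsa-miR-204-5p: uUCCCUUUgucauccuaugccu
hsa-miR-204-3p: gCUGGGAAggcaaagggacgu
hsa-miR-211-5p: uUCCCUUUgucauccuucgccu
The 5p arms of miR-204 and miR-211 differed at 2 positions, both outside the seed. A transcript pairs with this seed where it reads AAAGGGA. Transcript sequences of the EphB and ephrin-B genes were not used here, so that no such site was looked for.

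Of the 9 gene markers set for HEK-293 cells, 8 were detected in all 4 channels, that is, with a probe that the software called well above background in each, among them LHX1, NEFL, NEFM, VIM and KRT18. PAX2 was above background in no channel. EPHB4 and EFNB2 are best known from vessels, but none of the 5 endothelial markers was counted. A counted probe was above background with the same RNA on each array and had no outlier flag. PECAM1, CDH5, KDR and TEK were above background in no channel. VWF was not among these, and its probe A_23_P105562 was left out for an outlier flag. That probe read 28.4 with control RNA and 48.3 with miR-204 RNA on the first array, and 28.3 and 37.9 on the other. Of the other lists, 0 of 2 hepatocyte genes and 2 of 3 fibroblast genes (COL1A1 and DCN) were detected in this way. In total RNA of a culture, fewer cells of a kind and less RNA per cell cannot be told apart.

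The EphB and ephrin-B genes were largely detected in these cells. Of their 10 probes, 9 were detected in all 4 channels, against 56.5% of all probes on the array. The exception was 1 of 2 EFNB2 probes. No member probe was saturated or had an outlier flag. Processed signals (intensities that the authors' software corrected for background and dye) ranged on the first array, with control RNA, from 22.7 for the dim EFNB2 probe to 3689 for EFNB1. These signals are not expression levels that can be compared between genes, since probes differ in how they hybridize.

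**Figure D1:**
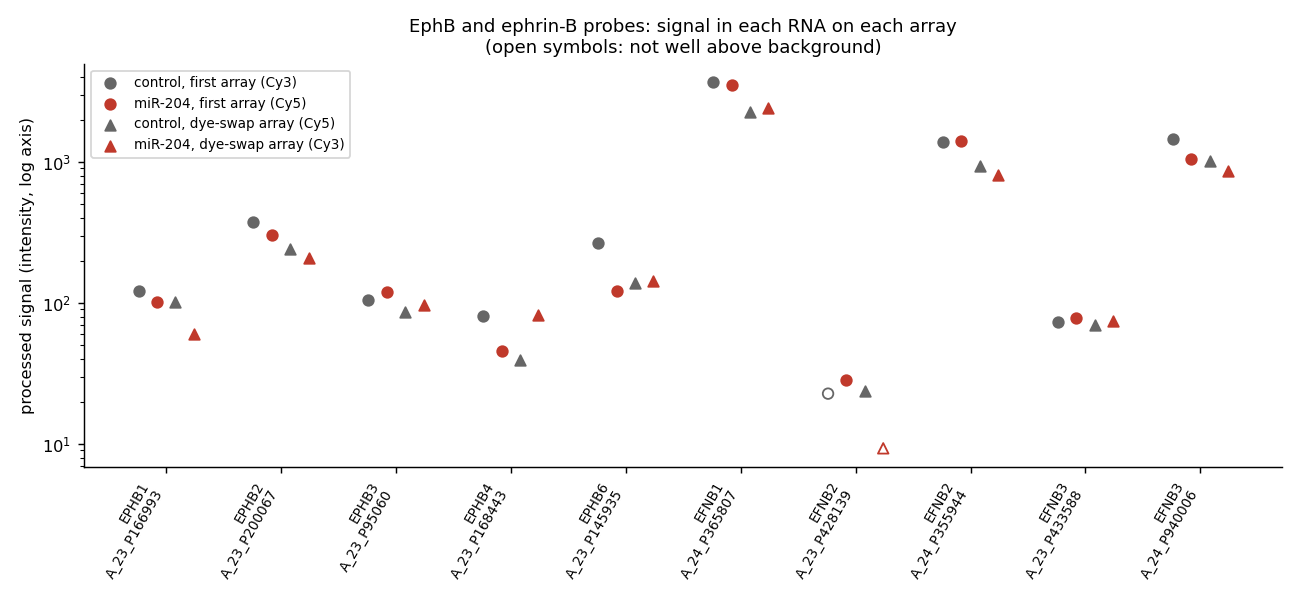
Processed signal (intensity, log axis) of each of the 10 EphB and ephrin-B probes in the control RNA (grey) and the miR-204 RNA (red) on the first array (circles) and the dye-swap array (triangles), with open symbols where the signal was not well above background. For EPHB2 the control signal was the higher one on both arrays, whereas for EPHB4 the Cy3 signal was the higher one on both, 80.3 with control RNA and 82.0 with miR-204 RNA.

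None of the 9 probes differed by 2-fold between miR-204 overexpressing and control cells. A probe was called where the mean log2 ratio of miR-204 over control reached 2-fold with the same sign on both arrays, after quantile normalization of the 4 channels. By this rule 0 of the 9 were lower and 0 were higher, where 0.518% of the 25270 probes counted across the array were lower and 0.123% higher. At 1.5-fold the numbers were still 0 and 0, against 2.62% lower and 1.27% higher across the array. With the rule of 2-fold on each of both arrays, which 0.0871% of counted probes met as lower and 0.0514% as higher, the members again gave 0 and 0. With 9 probes, shares of this size give less than 1 call, so the count of 0 does not set these genes apart. The median of the 9 mean log2 ratios was -0.11, compared with 0.001 over all counted probes. On the single arrays it was -0.28 (first) and 0.02 (dye swap).

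The direction of the ratio was also mixed. Of the 9 probes, 3 were below 0 on both arrays (EPHB1, EPHB2 and 1 EFNB3 probe), against 23.2% of all counted probes. A further 2 were above 0 on both (EPHB3 and the other EFNB3 probe), against 24.2%. The remaining 4 had opposite signs (EPHB4, EPHB6, EFNB1 and EFNB2), against 52.4%. Each of these counts lay within 1 probe of what the share over the array gives for 9 probes. Over the 23159 probes detected in all 4 channels, the ratios of the 2 arrays had a Pearson correlation of -0.08. The same sign on both arrays was therefore not read as replication for any probe named here.

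EPHB2, a receptor with roles in axon guidance, at synapses and in the intestinal crypt, was slightly lower in the miR-204 RNA on both arrays. Its probe, A_23_P200067, lies on chromosome 1 of hg18 from 23113178 to 23113237. On the first array it read 372.7 with control RNA and 305.2 with miR-204 RNA, and on the dye-swap array 241.5 and 210.1. The miR-204 signal was the lower one on each array. The control signal of the dye-swap array was below the miR-204 signal of the first, but signals were not scaled between the arrays. The log2 ratios of the first and the dye-swap array were -0.29 and -0.21, with a mean of -0.25 ± 0.05 (SD over the 2 technical arrays), or 1.19-fold lower. The software's own error of a log2 ratio was 0.21 on both arrays. The ratio of the first array was somewhat larger than this error, and that of the dye-swap array about as large. Of all counted probes, 15.5% had a mean at or below that of EPHB2.

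EPHB1, a receptor known from the guidance of retinal axons, was lower on both arrays by unequal amounts. The probe A_23_P166993 (chromosome 3 of hg18, from 136460804 to 136460863) read 122.4 with control RNA and 100.9 with miR-204 RNA on the first array. On the dye-swap array the signals were 102.3 and 60.2. The miR-204 signal was thus the lower one on each array, and signals were not scaled between the arrays. The log2 ratios were -0.28, near the software's error of 0.23, and -0.77, where that error was 0.26. The mean of -0.52 ± 0.35 (SD over the 2 arrays) was among the lowest 4.02% of counted probes. It was -0.25 with normexp and loess and -0.27 with loess and no background correction.

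EPHB6, a receptor whose kinase domain is inactive, had a mean below 0 that came from 1 array. The probe A_23_P145935 lies on chromosome 7 of hg18 from 142278499 to 142278558. On the first array its signal was 266.5 with control RNA and 120.7 with miR-204 RNA, whereas on the dye-swap array the signals were 139.4 and 143.1. Processed signals were not scaled between the arrays, so no single channel is named as the one that stood apart. The log2 ratio of the first array was -1.13, past 2-fold. On that array 2.87% of counted probes were lower by 2-fold and 0.768% higher. The dye-swap array gave 0.02. The mean was therefore -0.56 ± 0.81 (SD over the 2 arrays), a difference smaller than the spread between the arrays. With normexp and loess the ratios were -0.79 and -0.11, again with the larger one on the first array.

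EPHB4, the receptor of venous endothelium that binds ephrin-B2, moved in opposite directions. The ends of its probe, A_23_P168443, lie at 100239102 and 100240736 on chromosome 7 of hg18, so that it spans 1635 bases where the other 9 member probes span 60 each. The signal of the first array was 80.3 with control RNA and 45.3 with miR-204 RNA, and that of the dye-swap array 39.3 and 82.0. The Cy3 signal was the higher one on both arrays, whichever RNA carried that dye. As miR-204 over control, the log2 ratios were -0.83 for the first array and 1.07 for the dye-swap array. On the latter 0.305% of counted probes were higher by 2-fold and 0.823% lower. The mean was 0.12 ± 1.34 (SD over the 2 arrays), and no direction is read from it. Taken as Cy5 over Cy3, the mean log2 ratio of the 2 arrays was -0.95, and 0.720% of counted probes had one as large in either direction. Before background correction the 4 mean spot signals lay between 105 and 129, above local backgrounds of 62 to 64.5. With normexp and loess the log2 ratios were -0.29 and 0.46, smaller but still of opposite sign. The part of the dye in these ratios was not tested.

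EPHB3, which acts with EPHB2 in the intestinal crypt, was slightly higher on both arrays. For the probe A_23_P95060 (chromosome 3 of hg18, from 185782519 to 185782578) the signals of control and miR-204 RNA were 104.7 and 120.1 on the first array. On the dye-swap array it was 86.9 and 96.4. The log2 ratios were 0.21 and 0.15, each under the software's error of 0.22, and the mean was 0.18 ± 0.04 (SD over the 2 arrays). It was 0.07 with loess, both with normexp and without background correction. EPHB2 and EPHB3 thus lay on opposite sides of 0 by amounts that did not exceed 1.19-fold.

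**Figure D2:**
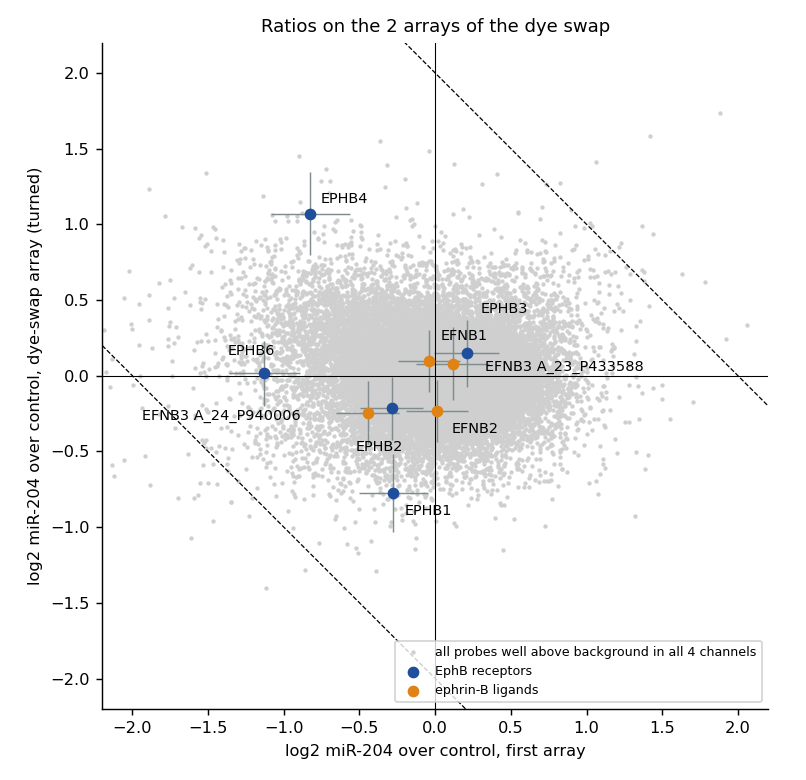
Log2 ratio of miR-204 over control on the first array (x axis) and, after turning, on the dye-swap array (y axis) for the 23159 probes detected in all 4 channels (grey, 8 of them beyond the axes), with the EphB receptors in blue and the ephrin-B ligands in orange. Error bars are the software's error of each ratio, and the dashed lines mark a mean of 2-fold. No member lies beyond a dashed line, and EPHB4 lies at -0.83 and 1.07, in the quadrant of opposite signs.

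EFNB1, the X-linked ligand whose loss causes craniofrontonasal syndrome, was carried by the probe A_24_P365807 (chromosome X of hg18, from 67978558 to 67978617). It read 3689 with control RNA and 3544 with miR-204 RNA on the first array. On the dye-swap array it read 2274 and 2426, so that the RNA with the higher signal changed between the arrays. The log2 ratios were -0.04 and 0.10, with a mean of 0.03 ± 0.10 (SD over the 2 arrays), and both were smaller than the software's error of 0.20.

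EFNB2, the ligand of arterial endothelium, was carried by 2 probes on chromosome 13 of hg18 whose starts lie 893 bases apart. The probe A_24_P355944 (from 105940737 to 105940796) read 1388 with control RNA and 1406 with miR-204 RNA on the first array. On the dye-swap array the signals were 943.4 and 807.0. The log2 ratios were 0.01 and -0.23, with a mean of -0.11 ± 0.17 (SD over the 2 arrays). The dim probe A_23_P428139 (from 105941630 to 105941689) was well above background in 2 channels, at 28.6 for the miR-204 RNA of the first array and at 23.6 for the control RNA of the other. Both of these channels carried Cy5. In the Cy3 channels it read 22.7 with control RNA (first array) and 9.31 with miR-204 RNA (dye swap). As it was measured in each RNA on 1 of 2 arrays, it was not counted and no fold is given.

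EFNB3, a ligand known from the midline of the spinal cord, was carried by 2 probes on chromosome 17 of hg18, and these disagreed. The probe A_24_P940006 (from 7554848 to 7554907) read 1445 with control RNA and 1057 with miR-204 RNA on the first array, and 1016 and 859.5 on the other. It was lower on both, with log2 ratios of -0.45 and -0.24 and a mean of -0.34 ± 0.14 (SD over the 2 arrays), or 1.27-fold. The probe A_23_P433588 (from 7552073 to 7552132), whose start lies 2775 bases away, read 72.7 and 78.6 on the first array and 69.9 and 74.4 on the other. Its log2 ratios were 0.12 and 0.08, with a mean of 0.10 ± 0.03. The mean over both probes was -0.12, and the ratios of the 2 probes were 0.44 apart on the log2 scale.

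Taken by role, the 5 receptor probes had a median log2 ratio of -0.25 and ranged from -0.56 to 0.18. The 4 counted ligand probes had a median of -0.04 and ranged from -0.34 to 0.10, and the median over all counted probes was 0.001. On the first and the dye-swap array the receptor median was -0.29 and 0.02, and the ligand median -0.01 and -0.08. The receptor median was thus the lower one on the first array only. The SD of the ratios on the first and the dye-swap array was 0.52 and 0.67 over the receptor probes. It was 0.25 and 0.19 over the ligand probes, and 0.45 and 0.33 over all counted probes. The highest receptor signal was 372.7 (EPHB2), whereas EFNB1, the counted EFNB2 probe and the EFNB3 probe A_24_P940006 read at least 807.0. Role and signal level were therefore not separated. No gene of either role was called in the mean of the arrays.

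**Figure D3:**
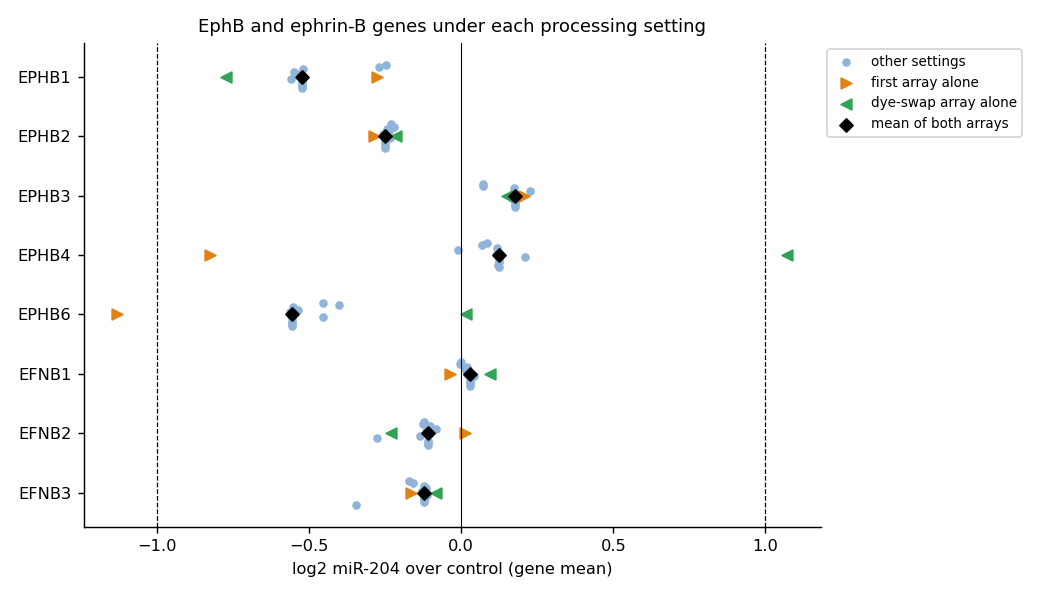
Mean log2 ratio of miR-204 over control of each EphB and ephrin-B gene (x axis) in the mean of both arrays (diamonds), on either array alone (triangles) and under each other processing setting (dots), with dashed lines at 2-fold. EPHB2 stayed between -0.29 and -0.21, whereas EPHB4 went from -0.83 with the first array alone to 1.07 with the dye-swap array alone.

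The A class, whose ligands are held to the membrane by a lipid anchor, was measured alongside. Its 9 receptors and 5 ligands were carried by 23 probes, of which 13 for 9 genes were counted, and EPHA1, EPHA6 and EPHA10 were above background in no channel. None of the 13 was called in either direction, against 0.518% lower and 0.123% higher of all counted probes. Their median log2 ratio was -0.17, compared with 0.001 over all counted probes. On the single arrays it was 0.08 (first) and -0.35 (dye swap). Of the 13, 3 were below 0 on both arrays (23.2% of all counted probes) and 2 above 0 on both (24.2%). The other 8 were of opposite sign (52.4%). EPHA4, a receptor that also binds ephrin-B ligands, had 3 counted probes with mean log2 ratios of -0.19, -0.17 and -0.14, of which 2 were opposite in sign between the arrays.

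Genes that act with Eph receptors and ephrins, such as adaptors, exchange factors, GTPases, PDZ partners and the protease ADAM10, were taken with the A class as 6 lists of 58 genes on the array. Of their 116 probes 82 were counted. By 2-fold, 0 of these were lower and 0 higher, against 0.518% and 0.123% of all counted probes. The median log2 ratio was -0.07. At 1.5-fold, 5 were lower (6.10% of the 82, against 2.62% of all counted probes) and 1 was higher (1.22%, against 1.27%). Of the 5, 3 (VAV3, EFNA3 and ABL1) did not reach the background call in every channel. The other counted VAV3 probe had a mean log2 ratio of 0.02, and the other counted ABL1 probes had means of 0.005 and 0.10. A total of 26 probes (31.7%) were below 0 on both arrays, against 23.2% of all counted probes, and 10 (12.2%) were above 0 on both, against 24.2%. Probes of 1 gene share a transcript, and the lists were chosen with earlier results known, so that these shares describe the lists only.

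By list, the median log2 ratio was -0.21 over the 8 counted probes of EphA receptors and 0.02 over the 5 of ephrin-A ligands. It was 0.003 over 20 probes of kinases and adaptors and -0.06 over 31 of exchange factors and GTPases. It was 0.05 over 13 of PDZ partners and reverse signalling, and -0.17 over 5 of shedding and turnover.

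The lowest ratio among probes of these lists detected in all 4 channels was that of ITSN1 (intersectin 1), an exchange factor for CDC42 known to act with EPHB2. Its probe A_24_P111061 read 689.4 with control RNA and 264.7 with miR-204 RNA on the first array, and 484.1 and 333.4 on the other. The miR-204 signal was thus the lower one on each of the arrays. The log2 ratios were -1.37 and -0.54, with a mean of -0.96 ± 0.58 (SD over the 2 arrays), short of 2-fold. The other counted ITSN1 probe, A_23_P252962, had log2 ratios of -0.14 and -0.02, so that the probes of this gene disagreed.

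Next were MLLT4, the cell junction protein afadin, with log2 ratios of -0.68 and -0.49 for the probe A_23_P256603, and the small GTPase RRAS with -0.54 and -0.35 for A_23_P39076. The other counted MLLT4 probe had 0.34 and -0.23, whereas the other RRAS probe had -0.30 and -0.39. At the high end, the probe of ADAM10, a protease that cleaves ephrins, gave log2 ratios of 1.18 (first array) and 0.06 (dye swap), so that its mean of 0.62 came from 1 array. The STAT3 probe A_23_P100795 had 0.64 and 0.18, whereas the other counted STAT3 probes had 0.02 and 0.15, and -0.07 and 0.36. The KALRN probe A_24_P410797 had 0.67 and -0.15, while another counted KALRN probe had -0.24 and -0.43. The 3 RAC1 probes, for the GTPase on which Eph and ephrin signals converge, had mean log2 ratios of -0.10, -0.08 and 0.07.

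**Figure D4:**
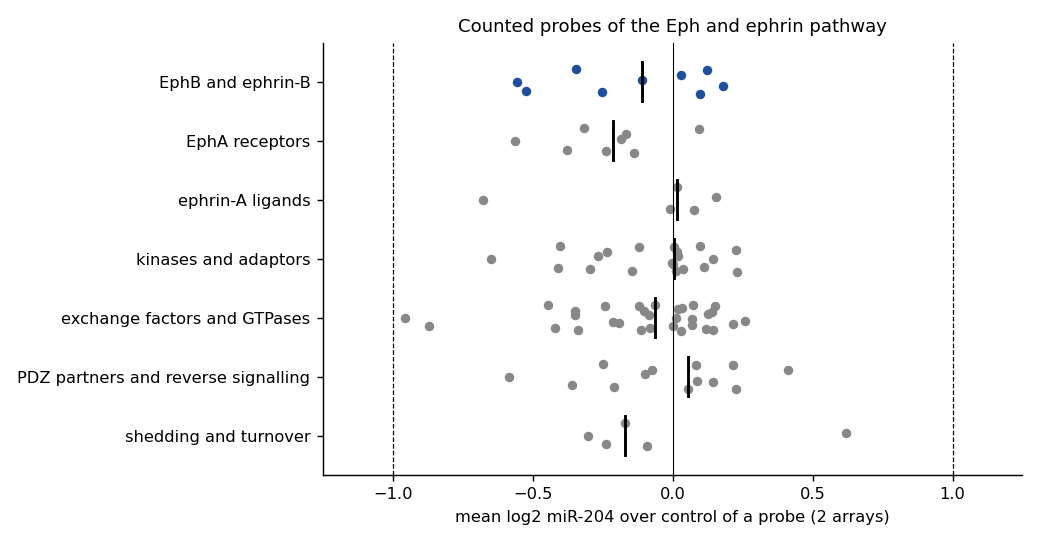
Mean log2 ratio of miR-204 over control over the 2 arrays (x axis) for each counted probe (dots) of the EphB and ephrin-B genes (blue) and of the 6 other lists (grey), with the median of each list as a black bar and 2-fold as dashed lines. All dots lie within 2-fold, and the lowest, at -0.96, is the ITSN1 probe.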

How the data were processed

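2-colour Agilent whole genome arrays were read for 1 dye swap of miR-204 against control RNA. Signal extraction by the authors used Feature Extraction 9.5.3.1. The deposited processed signals are intensity values that this software corrected for background and dye, while spot means and local backgrounds are deposited intensity values as scanned. The software's log ratio and its error were deposited as log10 (Cy5 to Cy3) and are given here as log2. Log2 ratios of miR-204 over control, quantile normalized by the authors, make up the deposited series table. Flags for background, saturation and outliers were taken as deposited (other columns).

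Control spots were removed, as were 128 probes that carried an outlier flag, spots of a probe were averaged, and log2 processed signals were quantile normalized across the 4 channels with limma 3.58.1 in R 4.3.3. A probe was counted (25270 of 41000) if the control RNA, or the miR-204 RNA, was well above background in its channel of each array. Over the 23159 probes above background in all 4 channels, the turned ratios of the arrays had a Pearson correlation of -0.08 across probes. The steps were tested on simulated data with planted changes larger than those reported here and with independent noise in each channel. That test cannot tell how well smaller differences are called in these arrays. A further marker list is not reported here. The number of arrays limits the precision. Positions are on hg18 as the files give them, and exon or UTR annotation on that build was not used here.

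The members and the lists were chosen with earlier results of these data known. All member probes are reported, and of the wider lists the called probes and the lowest 3 and highest 3 above background in all 4 channels, while EPHA4, RAC1, the 3 dim probes named at 1.5-fold and the other counted probes of the genes named were added after their values were seen. The t-test of the methods and limma run over arrays that are 1 replicate and serve as alternatives only, beside other background corrections, normalizations, deposited values, filters, thresholds and single arrays.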

Additional observations from a re-analysis of the deposited data

How the results depend on the processing

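The count of 0 lower and 0 higher among the EphB and ephrin-B probes stayed the same under each alternative run that used both arrays. These were normexp and loess, loess without background correction, processed signals alone, quantile normalization of the ratios, centring, the log ratio column, the series table, no filter on signal, the strict filter, outlier flags kept, 1.5-fold, 2-fold on each array, and the t-test of the methods and limma with 2-fold. Without any fold, 0 of the 9 probes passed either test before or after Benjamini-Hochberg adjustment. Of the 25270 counted probes 1604 passed the t-test and 1177 limma before adjustment, and 1 and 0 after it, so that these tests set nothing apart. With 1 array left out, the lower count ranged from 0 to 1 and the higher count from 0 to 1. EPHB6 was lower on the first array alone, and EPHB4 was higher on the dye-swap array alone. Without the filter on signal, 3 probes of the wider lists were lower and 1 higher, the probes added being dim by construction, and at 1.5-fold 5 were lower and 1 higher. The other settings run for these lists gave no call.

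The median over the members lay between -0.18 and -0.08 with both arrays and was -0.28 and 0.02 on the single arrays. EPHB1, EPHB2 and EFNB3 were below 0 and EPHB3 above 0 under all 13 alternatives, which reuse the same 2 arrays. For EFNB3 this was the mean of 2 probes that disagreed, or its brighter probe alone. Its probe A_23_P433588 had a mean of 0.01 with normexp and loess and 0.11 with quantile normalization of the ratios. EPHB1 ranged from -0.77 to -0.25, EPHB2 from -0.29 to -0.21, EFNB3 from -0.34 to -0.08 and EPHB3 from 0.07 to 0.23. EPHB4 changed sign with quantile normalization of the ratios (-0.01) and on the first array alone (-0.83). EPHB6 was 0.02 on the dye-swap array alone, EFNB2 0.01 on the first alone, and EFNB1 lay between -0.04 and 0.10. No paired analysis was possible because a single dye swap gives only 1 replicate. The dim EFNB2 probe is limited by its signal over background.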
